A study of Mus musculus with 24 samples.

Results

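The renin-angiotensin system was followed through 5 genes, Agt, Ren1, Ace, Agtr1a and Agtr2, in the lung and the left ventricle of mice with and without a transgene that impairs heart muscle, exposed to particulate matter or not. The members were taken by gene symbol. Where a gene had several probe sets, the one that averaged highest across the 24 arrays stood for it. Of the 5 genes, 4 had a named probe set, among 18193 genes with one. Ren1 was not named by the probe annotation used here and was not analysed. Ace had 2 probe sets, the second of which served as a check.

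The animals were CD-1 mice aged 20 weeks, described as male. The dnCREB mice carried a dominant negative CREB1, a transcription factor form that blocks CREB, under the alpha myosin heavy chain promoter, which is active in cardiomyocytes. Their controls were wild type (WT). Each genotype received either particulate matter (PM, 1.9 µm, at 20 mg/kg, with a harvest at 36 h that the label words for lung in both tissues) or phosphate-buffered saline (PBS). This gave dnCREB PM, dnCREB PBS, WT PM and WT PBS in each of 2 tissues, with 3 arrays per group. The series text speaks of 3 animals per group. Nothing states that equally numbered lung and heart arrays share an animal, and p-values measure the spread between these arrays.

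The renin-angiotensin system is a peptide hormone cascade that raises blood pressure and retains salt. Renin cuts angiotensinogen to angiotensin I, and angiotensin-converting enzyme (ACE), carried in large amounts by the endothelium of lung vessels, cuts that to angiotensin II. Angiotensin II acts mainly through the AT1 receptor, which in the failing heart is linked to hypertrophy and fibrosis, while the AT2 receptor is often described as opposing it. Drugs that block ACE or the AT1 receptor are standard treatments of heart failure.

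All values are log2 expression values, and a difference of 1 is a doubling. The tissues had been normalized separately, with array medians of 3.25 to 3.37 in left ventricle and 4.09 to 4.19 in lung, so levels were read within a tissue only. The 6 Creb1 probe sets disagreed on the transgene. One of them, chosen after its values were seen, read 9.05 to 12.00 in the dnCREB hearts and 2.51 to 3.29 in the WT hearts, and 3.34 to 4.29 in all lungs. Another, chosen the same way, read 8.42 to 10.58 in dnCREB hearts, 5.75 to 7.21 in WT hearts and 4.44 to 4.74 in lungs. The remaining probe sets averaged lower in dnCREB than in WT hearts under each exposure. The one with the highest average read a mean of 8.56 in dnCREB PM against 9.28 in WT PM hearts, and of 8.46 in dnCREB PBS against 8.82 in WT PBS hearts. Several arrays went against the label "male". Xist, transcribed from the inactive X chromosome, was high (12.05 to 13.05) in all 6 WT hearts, whereas 5 of the 6 dnCREB hearts had high Eif2s3y, a Y-linked gene, and low Xist. The exception was dnCREB PM replicate 3, with Xist at 13.71. Genotype and sex-chromosome class therefore ran nearly together in the heart, and under PBS they cannot be told apart by the arrays of that arm. In lung, 6 arrays had high Xist, 4 had high Eif2s3y and dnCREB PBS replicates 1 and 3 had neither. The WT PBS lungs had Eif2s3y at 9.24 to 10.19 and Xist at 2.15 to 2.72, opposite to the WT PBS hearts. Read as labelled, these lungs and hearts therefore cannot share animals. Only WT PM replicates 1 and 3 and dnCREB PM replicate 3 had the same class in lung and heart. Whether labels are wrong was not tested. Of the 12 lung arrays, 5 (dnCREB PM replicate 3, dnCREB PBS replicates 1 and 3, and WT PM replicates 1 and 2) had skeletal muscle genes at a mean of 6.62 to 7.05, against 2.74 to 4.28 in the other lung arrays. The lung epithelial markers Sftpc, Sftpb, Foxj1 and Ager were under 4 in all hearts. Scgb1a1, the other of these 5 markers, was under 4 throughout every heart group except WT PBS. There the mean of the 5 was 3.44 in replicate 2, against 2.75 and 2.74 in replicates 1 and 3. All 6 cardiomyocyte markers were above 4 in every heart array and also in every lung array. Their lung means were 9.77 to 10.54, except for 12.08 in dnCREB PBS replicate 1. That lung also had the highest mean of the 4 atrial markers, 12.85, against 9.21 to 10.82 in the other lungs.

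Agt, which encodes angiotensinogen (probe set 1423396_at, gene at chr8:124556587-124569706 of GRCm38.p6, the build of all coordinates here), stayed under a log2 value of 4 on every array of both tissues. A gene needed at least 3 arrays above 4 in a tissue to be tested there, so Agt was tested in neither. In left ventricle Agt read 2.21, 2.25 and 2.21 in dnCREB PM, 2.22, 2.28 and 2.19 in dnCREB PBS, 2.19, 2.26 and 2.29 in WT PM, and 2.53, 2.22 and 2.35 in WT PBS. These 4 groups overlapped, within a total range of 2.19 to 2.53. In lung Agt read 2.58, 2.58 and 3.21 in dnCREB PM, 2.57, 2.54 and 2.55 in dnCREB PBS, 3.07, 3.55 and 2.62 in WT PM, and 2.57, 2.77 and 2.73 in WT PBS. The 3 highest lung arrays, at 3.07, 3.21 and 3.55, all came from PM lungs and were all among the arrays with high skeletal muscle genes. The part of that tissue in these values was not tested.

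Agtr2, which encodes the AT2 receptor (probe set 1415832_at, gene at chrX:21484624-21488833), was also under 4 on all 24 arrays and was not tested. Its left ventricle values were 3.14, 3.27 and 3.09 in dnCREB PM, 3.19, 3.20 and 3.15 in dnCREB PBS, 3.16, 3.22 and 3.29 in WT PM, and 3.30, 3.18 and 3.29 in WT PBS. Lung values ran over 2.89 to 3.13 with a median of 2.94. No group stood clear of the others in the heart. In lung the dnCREB PM arrays, at 2.97 to 3.08, lay just above the dnCREB PBS arrays, at 2.91 to 2.92, and the same groups did not overlap for 29.1% of all genes tested there.

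**Figure D1:**
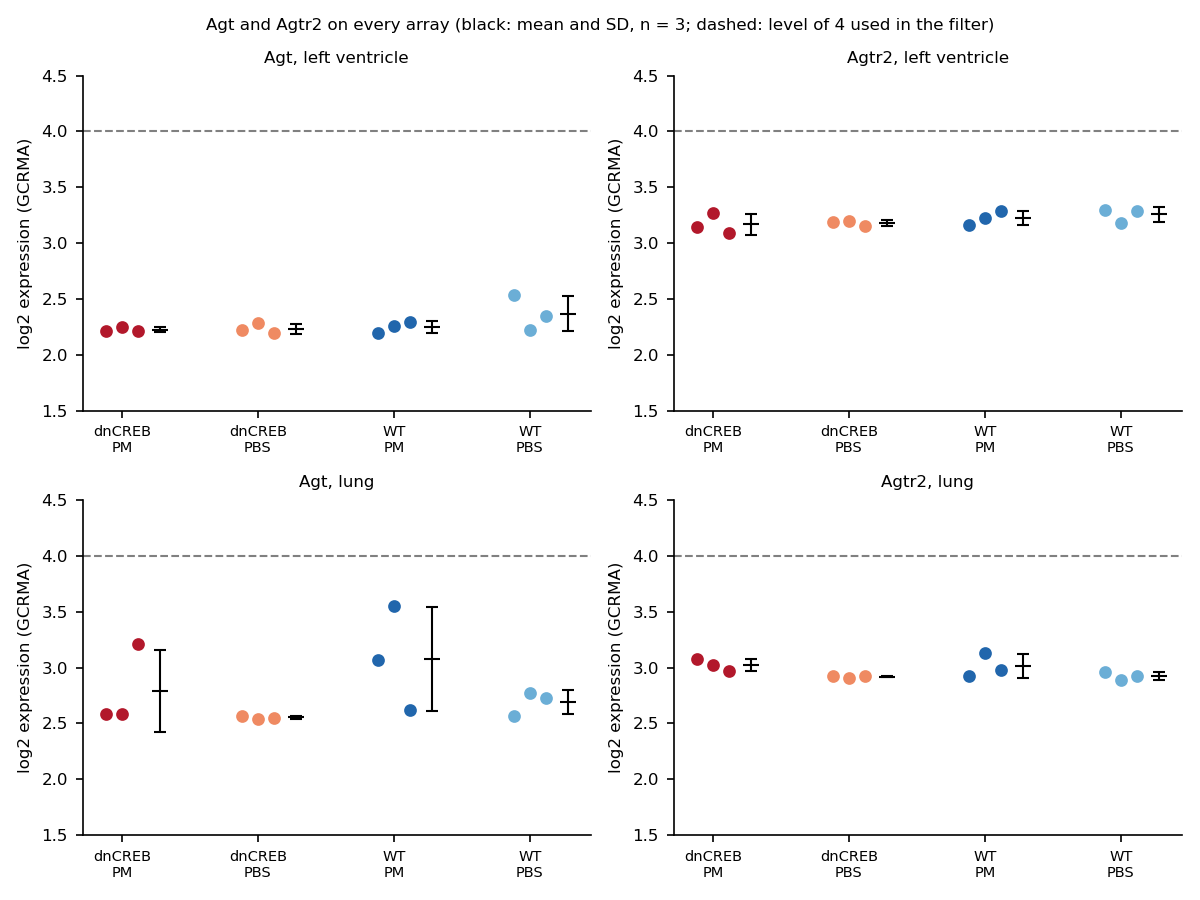
Log2 expression (vertical axis) of Agt and Agtr2 on every array, in 4 panels by gene and tissue. Points are arrays, black marks are the mean and SD of n = 3, and the dashed line is the level of 4 used in the filter. All points lie under the line, with the highest at 3.55 (Agt, WT PM lung).

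Ace encodes the enzyme that makes angiotensin II. The gene lies at chr11:105967948-105989964 on the forward strand. Because CREB acts through the cAMP response element TGACGTCA, the 250 bases before each of the 2 annotated Ace starts are shown, from RefSeq (GRCm38.p6). Capitals mark TGAGGTCA, a sequence like that element, whose first base is at position -52 from the second, internal start.
Ace first start, chr11:105967698-105967947: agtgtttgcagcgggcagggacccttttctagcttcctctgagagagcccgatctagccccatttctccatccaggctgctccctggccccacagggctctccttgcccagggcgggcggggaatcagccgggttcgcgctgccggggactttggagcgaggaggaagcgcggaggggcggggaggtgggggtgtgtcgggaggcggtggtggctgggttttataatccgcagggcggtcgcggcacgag
Ace internal start, chr11:105974939-105975188: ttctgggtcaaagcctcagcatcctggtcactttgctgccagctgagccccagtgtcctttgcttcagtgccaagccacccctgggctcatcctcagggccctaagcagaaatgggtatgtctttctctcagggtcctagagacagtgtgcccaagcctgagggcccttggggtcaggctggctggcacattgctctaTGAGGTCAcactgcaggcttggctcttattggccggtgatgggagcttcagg
The first start gives the long, somatic form of ACE, and the internal start is known for the short form made in the testis. Searched on both strands, TGACGTCA stood in 1.55% of the 32851 promoter windows of the same length, its shorter core TGACG in 17.8% and TGAGGTCA in 1.94%. TGACG is contained in TGACGTCA. Neither TGACGTCA nor TGACG was found in the 5 windows of the 4 members that have one (Agt, Ren1, Ace and Agtr2), which says only that these letters are not in these windows. The arrays do not tell which start was used.

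In left ventricle Ace was higher in dnCREB mice under both exposures. Its probe set 1427034_at read 11.35, 11.19 and 11.12 in dnCREB PM hearts, against 8.02, 8.22 and 8.11 in WT PM hearts. Under PBS it read 11.01, 11.40 and 10.95 in dnCREB hearts, against 8.75, 8.53 and 8.52 in WT hearts. All 6 dnCREB arrays lay above all 6 WT arrays, with a gap from 8.75 to 10.95 between them. Under PM the log2 difference was 3.10 ± 0.14 (SE, n = 3 each), which is 8.59-fold (95% interval 6.94 to 10.6; limma, Benjamini-Hochberg adjusted p = 1.4e-06). Under PBS it was 2.52 ± 0.14, which is 5.73-fold (interval 4.63 to 7.08; limma adjusted p = 4.5e-06). Over all genes tested, 20.5% were called under PM and 18.8% under PBS. Genes called higher made up 11.4% and 13.2%, and the groups did not overlap for 36.5% and 42.7%. These overlaps are of 3 arrays with 3, and the share for all 6 against all 6 was not computed.

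The second Ace probe set, 1451911_a_at, gave the same direction. It read 10.59, 10.47 and 10.48 in dnCREB PM hearts, against 7.47, 7.82 and 7.51 in WT PM hearts. It read 10.00, 10.62 and 10.74 in dnCREB PBS hearts, against 7.80, 6.95 and 7.50 in WT PBS hearts. The dnCREB and WT arrays again did not overlap. The differences were 2.91 ± 0.24 under PM and 3.04 ± 0.24 under PBS (SE; limma adjusted p = 0.00016 and 9.4e-05 among all probe sets).

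With sex-chromosome class (Xist above 6 or not) in the model, the Ace difference was 3.00 under PM and 2.37 under PBS (limma adjusted p = 0.00016 and 0.0017). That class estimate rests on dnCREB PM replicate 3 alone. This array, the dnCREB heart with high Xist like the WT hearts, had Ace at 11.12, within the range of the other dnCREB hearts.

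**Figure D2:**
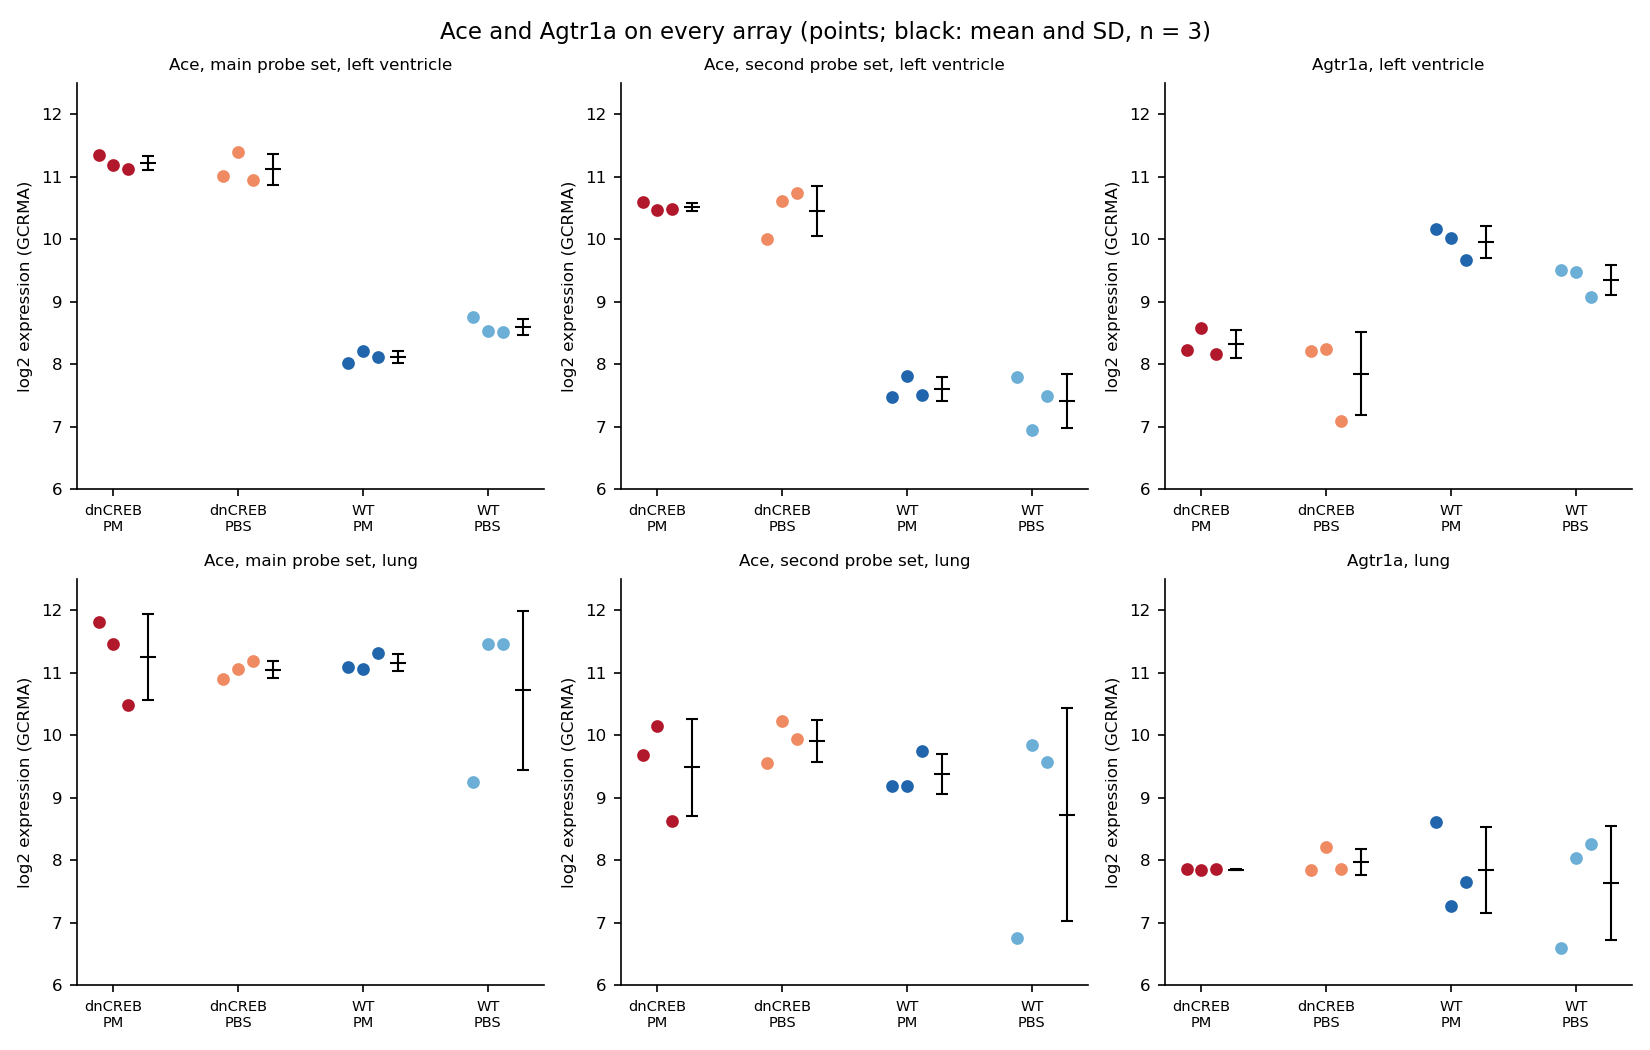
Log2 expression (vertical axis) of the 2 Ace probe sets and of Agtr1a on every array, left ventricle above and lung below. Points are arrays, and black marks are the mean and SD of n = 3. In left ventricle the dnCREB arrays lie above the WT arrays for Ace and below them for Agtr1a, while in lung the groups overlap.

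Some cell type markers moved with genotype in the same hearts. Over all genes, 11.4% under PM and 13.2% under PBS were called higher, and 9.13% and 5.6% lower. In bulk tissue, fewer cells of a type and less RNA per cell cannot be told apart. None of the 7 endothelial markers was called under PM or PBS, with median log2 differences of 0.44 and 0.09. Their summed level was 71.8 to 80.0 in dnCREB PM against 71.3 to 73.0 in WT PM, and 69.7 to 74.4 in dnCREB PBS against 71.0 to 72.7 in WT PBS. Of 8 fibroblast markers, 6 were higher in dnCREB hearts under each exposure, with medians of 1.06 under PM and 1.14 under PBS. Dcn, Col1a1, Pdgfra, Tcf21, Dpt and Postn passed in both. Postn, secreted by activated fibroblasts, was higher by 4.52 under PM and 5.49 under PBS (limma adjusted p = 0.00034 and 0.00012). The summed fibroblast level was 98.7 to 109.4 in dnCREB PM against 90.2 to 93.4 in WT PM, and 103.6 to 106.1 in dnCREB PBS against 90.1 to 91.9 in WT PBS. Of 6 macrophage markers, 4 were higher under PM and 1 under PBS, with summed levels of 55.0 to 57.4 in dnCREB PM against 42.2 to 46.8 in WT PM, and of 51.7 to 57.9 in dnCREB PBS against 44.9 to 54.4 in WT PBS. No fibroblast or endothelial marker was under 4 throughout a heart group, and Cd14 was under 4 in all WT PM hearts. Of 7 tested smooth muscle and pericyte markers, none was higher and 1 lower under PM, and 1 was higher and 1 lower under PBS (median -0.16 and 0.34). Their list summed to 82.1 to 85.2 in dnCREB PM against 82.3 to 84.1 in WT PM, and to 81.2 to 84.6 in dnCREB PBS against 80.1 to 83.4 in WT PBS, with Cnn1 under 4 in all hearts. Of 4 atrial markers, Sln and Myl7 were under 4 in all hearts, and Nppa, the atrial natriuretic peptide gene, was higher by 1.88 under PM and 2.10 under PBS (limma adjusted p = 0.004 and 0.0022). Myl4, the atrial light chain gene, was higher by 3.25 under PBS (limma adjusted p = 0.0343), and its difference of 2.75 under PM was not called (limma adjusted p = 0.0585). The atrial list summed to 26.1 to 29.7 in dnCREB PM against 23.0 to 23.8 in WT PM, and to 26.3 to 29.6 in dnCREB PBS against 21.6 to 23.5 in WT PBS. The part of the fibroblast, macrophage, smooth muscle and atrial marker shifts in the Ace difference was not tested.

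**Figure D3:**
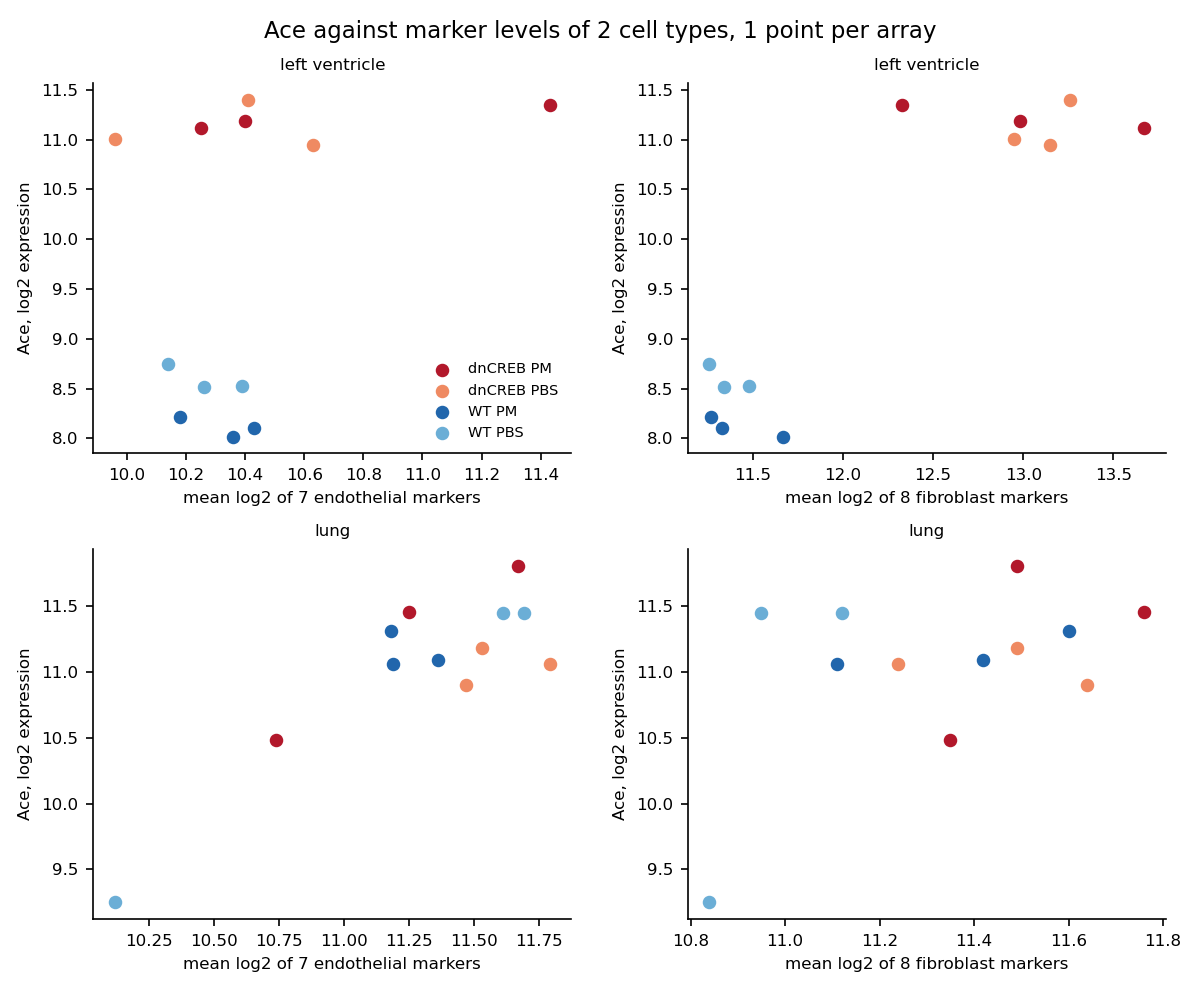
Ace (vertical axis, log2 expression) against the mean log2 level of 7 endothelial markers and of 8 fibroblast markers (horizontal axes), 1 point per array, left ventricle above and lung below. In left ventricle the dnCREB points lie higher on Ace and at fibroblast means of 12.33 to 13.67, against 11.26 to 11.67 in WT, and the endothelial means overlap. In lung the lowest Ace value, 9.25, belongs to the array with the lowest endothelial mean, 10.12.

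PM gave no called difference of Ace in the heart. In WT hearts the main probe set read 8.02, 8.22 and 8.11 with PM, against 8.75, 8.53 and 8.52 with PBS, and these arrays did not overlap. The difference was -0.48 ± 0.14 (SE), with an unadjusted p of 0.0054 and a limma adjusted p of 1.0. In that comparison 5.44% of all genes did not overlap and 0.01% were called. The second probe set differed by 0.19 the other way. In dnCREB hearts the difference was 0.10 ± 0.14, with an interval of -0.21 to 0.41. The test of the genotype difference between exposures, the interaction, gave 0.59 ± 0.20 (unadjusted p = 0.0131, limma adjusted p = 0.98), and -0.13 on the second probe set. No gene was called for PM in dnCREB hearts or for the interaction (limma, 0.0% of 9962 genes), where 490 and 361 genes had an unadjusted p under 0.05.

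In lung Ace was not called in any comparison. Its main probe set read 11.81, 11.46 and 10.48 in dnCREB PM, 10.90, 11.06 and 11.18 in dnCREB PBS, 11.09, 11.06 and 11.31 in WT PM, and 9.25, 11.45 and 11.45 in WT PBS. Except for WT PBS replicate 1, all lung arrays lay between 10.48 and 11.81. The same array was lowest on the second probe set, at 6.76, against 8.63 to 10.22 in the other lungs. Its 7 endothelial markers averaged 10.12, against 11.61 and 11.69 in the other WT PBS lungs. The next lowest endothelial mean, 10.74, was in dnCREB PM replicate 3, which was also the next lowest for Ace on both probe sets. The part of the endothelial level in these Ace values was not tested.

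The genotype difference of Ace in lung was 0.10 under PM (interval -1.05 to 1.24) and 0.33 under PBS (interval -0.81 to 1.47), with limma adjusted p of 0.9864 and 0.9187. The shares of genes called were 0.0% and 0.0259%. PM differed from PBS by 0.20 in dnCREB lungs (interval -0.94 to 1.35) and by 0.44 in WT lungs (interval -0.70 to 1.58), where 0.00862% and 2.39% of genes were called. Without WT PBS replicate 1, the difference under PBS was -0.40 and that of PM in WT was -0.30. All 4 intervals reach past a log2 difference of 1.

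Agtr1a encodes the main AT1 receptor of the mouse (probe set 1436739_at, gene at chr13:30336356-30382867). In left ventricle it moved opposite to Ace and was lower in dnCREB mice. It read 8.23, 8.58 and 8.17 in dnCREB PM hearts, against 10.17, 10.02 and 9.67 in WT PM hearts. It read 8.21, 8.25 and 7.09 in dnCREB PBS hearts, against 9.51, 9.47 and 9.07 in WT PBS hearts. All 6 dnCREB arrays lay below all 6 WT arrays, and dnCREB PBS replicate 3 was the lowest by more than 1. Under PM the difference was -1.62 ± 0.29 (SE, n = 3 each), or 3.08-fold lower (interval 1.97 to 4.83; limma adjusted p = 0.0044). Under PBS it was -1.50 ± 0.29, or 2.83-fold lower (interval 1.81 to 4.43; limma adjusted p = 0.0061). Genes called lower made up 9.13% of those tested under PM and 5.6% under PBS. The groups did not overlap for 36.5% and 42.7% of all genes. The share for all 6 against all 6 arrays was not computed.

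The Agtr1a call under PBS was lost with sex-chromosome class in the model, where the difference was -1.74 (limma adjusted p = 0.1267). Under PM it was then -1.78 (limma adjusted p = 0.0336). dnCREB PM replicate 3, with high Xist, had Agtr1a at 8.17, within the dnCREB range. Without dnCREB PBS replicate 3 the difference under PBS was -1.12. Ryr2 and Tnni3, which are genes of cardiomyocyte calcium release and contraction, were lower by 0.59 and 0.41 under PM. Ryr2 was the only one of the 6 cardiomyocyte markers called under PBS, at -0.96. The summed cardiomyocyte level was 95.8 to 97.1 in dnCREB PM against 97.3 to 98.1 in WT PM, and 95.9 to 96.4 in dnCREB PBS against 96.8 to 98.4 in WT PBS, with no marker under 4. The part of these markers in the Agtr1a difference was not tested.

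Agtr1a was not called for PM in the heart, where 0.0% of all genes were called in dnCREB and 0.01% in WT. The difference was 0.48 ± 0.29 in dnCREB hearts and 0.60 ± 0.29 in WT hearts (SE; limma adjusted p = 0.9657 and 1.0), with intervals of -0.17 to 1.13 and -0.05 to 1.25. In WT hearts all 3 PM arrays lay above all 3 PBS arrays, in a comparison where 5.44% of all genes did not overlap. In dnCREB hearts the groups overlapped. Averaged over genotypes, PM minus PBS was 0.54 ± 0.21 (interval 0.08 to 1.0; limma unadjusted p = 0.0249, adjusted p = 0.9996). No gene was called for that average, where 185 had an unadjusted p under 0.05. The interaction was -0.12 ± 0.41.

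In lung Agtr1a read 7.85, 7.84 and 7.85 in dnCREB PM, 7.84, 8.21 and 7.85 in dnCREB PBS, 8.61, 7.27 and 7.65 in WT PM, and 6.59, 8.04 and 8.26 in WT PBS. The dnCREB arrays were close together and lay inside the range of the WT arrays. As for Ace, the lowest lung value was that of WT PBS replicate 1. The genotype difference was 0.00 under PM (interval -0.92 to 0.93) and 0.34 under PBS (interval -0.58 to 1.26), and PM differed from PBS by -0.12 in dnCREB and by 0.21 in WT. None was called, and without WT PBS replicate 1 the difference under PBS was -0.18.

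**Figure D4:**
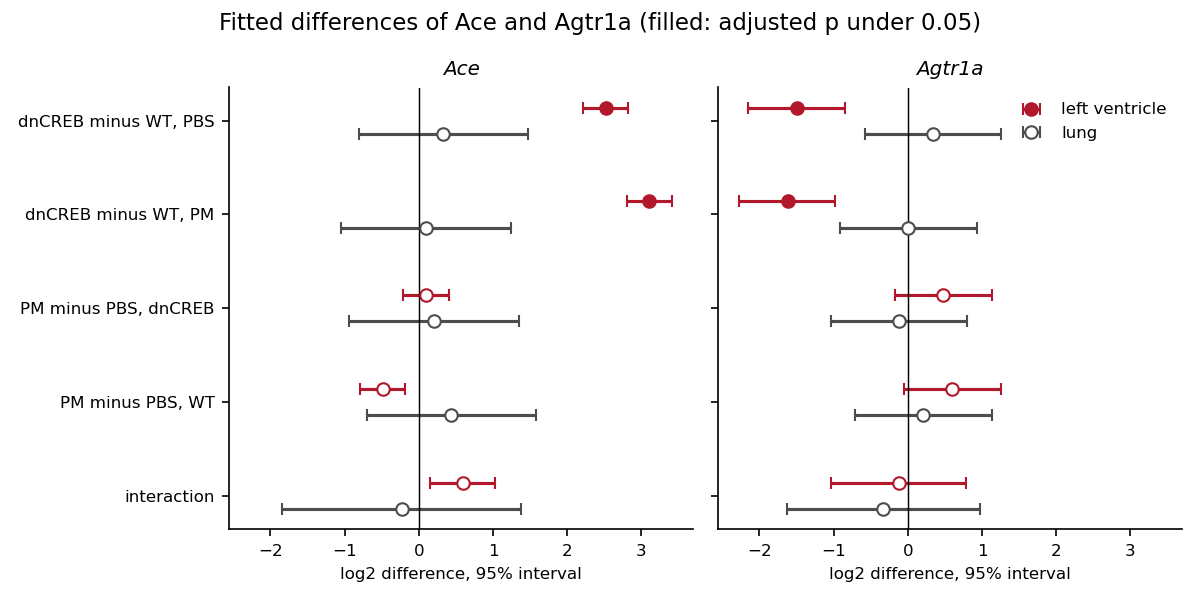
Fitted log2 differences (horizontal axis, 95% interval) of Ace and Agtr1a in left ventricle (red) and lung (grey), 1 line of points per comparison. Filled points have a limma adjusted p under 0.05. The left ventricle genotype differences are filled, at 3.10 and 2.52 for Ace and -1.62 and -1.50 for Agtr1a, and every lung interval spans 0.

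The genotype difference averaged over exposures was then compared between the tissues. For Ace it was 2.81 ± 0.10 in left ventricle and 0.21 ± 0.37 in lung (SE, n = 6 each), and heart minus lung was 2.60 ± 0.40 (interval 1.76 to 3.44; limma adjusted p = 0.00015). For Agtr1a it was -1.56 ± 0.21 in left ventricle and 0.17 ± 0.30 in lung, and heart minus lung was -1.73 ± 0.38 (interval -2.52 to -0.94; limma adjusted p = 0.0032). Across all genes tested in either tissue, 16.8% were called for this difference, 11.6% higher and 5.2% lower. The transgene is driven in cardiomyocytes, and sex-chromosome class was split by genotype differently in the tissues.

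As a description, Ace and Agtr1a had a Pearson r of -0.88 over the 12 heart arrays and of 0.67 over the 12 lung arrays. The heart value reflects 2 separate genotypes, and the lung value includes WT PBS replicate 1, lowest for both. Of 9962 genes in left ventricle, those most like Ace over the 12 arrays were Ccn5 (r = 0.983), Ltbp2 (0.982), which encodes a matrix protein that binds to microfibrils, and Tln1 (0.981), a cytoskeletal linker of integrins. Those most like Agtr1a were Magix (0.959), Fdx1 (0.958), a mitochondrial ferredoxin, and Mrpl14 (0.957), a mitochondrial ribosomal protein. Over the 12 lung arrays Ace was nearest to Dip2b (0.981), Dpysl2 (0.978) and Ptp4a3 (0.97), and Agtr1a to Tmod2 (0.904), Rnf214 (0.896) and Limch1 (0.895).

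Around the members, 52 other genes of the pathway were listed, of which 46 had a named probe set and 29 were tested in left ventricle. In dnCREB hearts 9 of the 29 were higher and 3 were lower under PM, and the counts were also 9 and 3 under PBS. That is 31.0% higher and 10.3% lower, beside 11.4% and 9.13% of all genes under PM and 13.2% and 5.6% under PBS. With sex-chromosome class in the model, 4 were higher and 3 lower under PM, and 2 higher and 1 lower under PBS. Without dnCREB PM replicate 3 the counts were 9 and 3 under PM and 10 and 4 under PBS. The fibroblast and macrophage markers above moved in the same hearts, and their part in these counts was not tested. The pathway lists were chosen with earlier results of these data known. Counts and shares of listed genes, here and below, are therefore a description and no test of an excess.

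Among 9 tested genes that process angiotensin peptides, 2 were higher and 1 lower under PM, and 3 higher and 1 lower under PBS (median 0.20 and 0.46, beside 0.02 and 0.09 over all genes). Of all genes, 11.4% and 13.2% were called higher and 9.13% and 5.6% lower. Mme encodes neprilysin, which makes angiotensin (1-7) and breaks down natriuretic peptides. It read 3.44, 6.32 and 4.56 in dnCREB PM hearts, against 8.67, 9.05 and 9.09 in WT PM hearts. Under PBS it lay between 3.40 and 5.34 in dnCREB hearts, against 8.87, 8.56 and 8.63 in WT hearts. Every dnCREB array lay below every WT array, and the dnCREB arrays were spread widely. Groups without overlap were common, at 36.5% of all genes under PM and 42.7% under PBS. These shares also apply to the genes described below in heart. They compare 3 arrays with 3 within an exposure, and none was computed for all 6 against all 6. The differences were -4.16 ± 0.66 under PM and -4.11 ± 0.66 under PBS (SE; limma adjusted p = 0.0022 and 0.0023). Ctsa, a lysosomal carboxypeptidase, was higher by 0.94 and 0.79, and Dpp3, a dipeptidyl peptidase that degrades angiotensin II, by 0.44 and 0.67. Nln, the peptidase neurolysin, was called under PBS only, at 0.97 (limma adjusted p = 0.0213), and the difference between exposures was not called. Cma1, Mcpt4, Ctsg and Cpa3, the mast cell proteases that can also form or trim angiotensin, were under 4 on all heart arrays, as were the mast cell markers Tpsb2 and Kit.

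Of 8 tested receptors and receptor partners, 2 were higher and 1 lower under each exposure (median 0.32 under PM and 0.46 under PBS). Beside these counts, 11.4% of all genes under PM and 13.2% under PBS were called higher, and 9.13% and 5.6% lower. Arrb1, the beta-arrestin that binds activated receptors, read 9.19, 7.95 and 7.84 in dnCREB PM hearts, against 6.70, 5.46 and 5.69 in WT PM hearts. It read 7.88, 8.30 and 8.88 in dnCREB PBS hearts, against 6.52, 5.56 and 5.60 in WT PBS hearts. All dnCREB arrays were above all WT arrays, by 2.38 under PM and 2.46 under PBS (limma adjusted p = 0.0058 and 0.0049). Atp6ap2, the prorenin receptor, was higher by 0.63 and 0.89 (limma adjusted p = 0.023 and 0.005). Rgs2, which limits signalling from Gq-coupled receptors such as AT1, was lower, with differences of -1.67 and -1.51 (limma adjusted p = 0.013 and 0.0209). Agtr1b, the second AT1 gene of rodents, was at 2.66 to 3.18 in heart and 2.38 to 2.56 in lung, and Mas1, the receptor of angiotensin (1-7), was at 3.27 to 3.65 in heart. Neither was tested there.

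In the mineralocorticoid arm, 1 of 3 tested genes was lower under each exposure and none was higher (median 0.51 under PM and -0.58 under PBS). Of all genes, 9.13% under PM and 5.6% under PBS were called lower. The gene called in this arm was Nr3c2, the mineralocorticoid receptor. It read 7.51, 8.22 and 7.62 in dnCREB PM hearts, against 9.35, 8.57 and 9.01 in WT PM hearts, and 7.69, 8.43 and 8.11 in dnCREB PBS hearts, against 9.00, 9.07 and 8.94 in WT PBS hearts. The arrays did not overlap in either comparison, and the differences were -1.20 ± 0.25 and -0.93 ± 0.25 (SE; limma adjusted p = 0.0089 and 0.0287). The aldosterone synthesis genes Cyp11b1 and Cyp11b2 were under 4 in both tissues, and all 5 measured genes of the kinin arm were under 4 on every heart array.

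Of 9 tested genes known to respond to the AT1 receptor, 5 were higher under PM and 4 under PBS. None was called lower under either (median 1.14 and 0.59, beside 0.02 and 0.09 over all genes). Of all genes, 11.4% and 13.2% were called higher and 9.13% and 5.6% lower. With 9 genes, no call lower is near those last shares. Averaged over exposures, 5 were higher and 1 was lower, beside 22.3% and 13.6% of all genes. Nox4, an NADPH oxidase, read 8.07, 6.05 and 8.46 in dnCREB PM hearts, against 2.06, 2.08 and 2.07 in WT PM hearts, and 5.71, 6.36 and 7.56 in dnCREB PBS hearts, against 2.26, 2.45 and 2.61 in WT PBS hearts. All WT hearts were under 4. Taken against that level, Nox4 was at least 11.5-fold higher under PM and at least 5.83-fold higher under PBS (limma adjusted p = 0.00034 and 0.0013). Nox4 met the filter only through the dnCREB hearts, where it was high. Its p-values and its place in the counts follow that selection and add no separate support. Rcan1, a calcineurin regulator, read 11.84, 13.38 and 13.14 in dnCREB PM hearts, against 10.86, 10.68 and 10.90 in WT PM hearts, and 13.65, 13.04 and 13.31 in dnCREB PBS hearts, against 10.76, 10.66 and 10.65 in WT PBS hearts. Its WT arrays were tight and all dnCREB arrays lay above them, by 1.97 and 2.64 (limma adjusted p = 0.003 and 0.00068). Ccn2, a matrix signalling protein also made by fibroblasts, was higher by 2.64 and 1.76, and Tgfb1 by 0.91 and 0.95. Cybb, the oxidase subunit of phagocytes, read 6.08, 5.75 and 5.55 in dnCREB PM hearts, against 4.05, 3.92 and 2.86 in WT PM hearts, where 2 of the 3 arrays were under 4. It was called under PM (limma adjusted p = 0.0102), where 4 of 6 macrophage markers were also higher, and not under PBS, and the difference between exposures was not called (limma adjusted p = 0.9801). The gene called lower on average was Fos, an immediate early gene, at a mean of 8.68 in dnCREB PM against 9.86 in WT PM and of 8.50 in dnCREB PBS against 10.89 in WT PBS. Its averaged difference was -1.78 ± 0.60 (SE; limma adjusted p = 0.0402). Fos and Egr1 were picked after their values were seen. Egr1, also an immediate early gene, averaged 10.44 in dnCREB PM against 10.74 in WT PM and 10.63 in dnCREB PBS against 11.66 in WT PBS, and was not called.

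**Figure D5:**
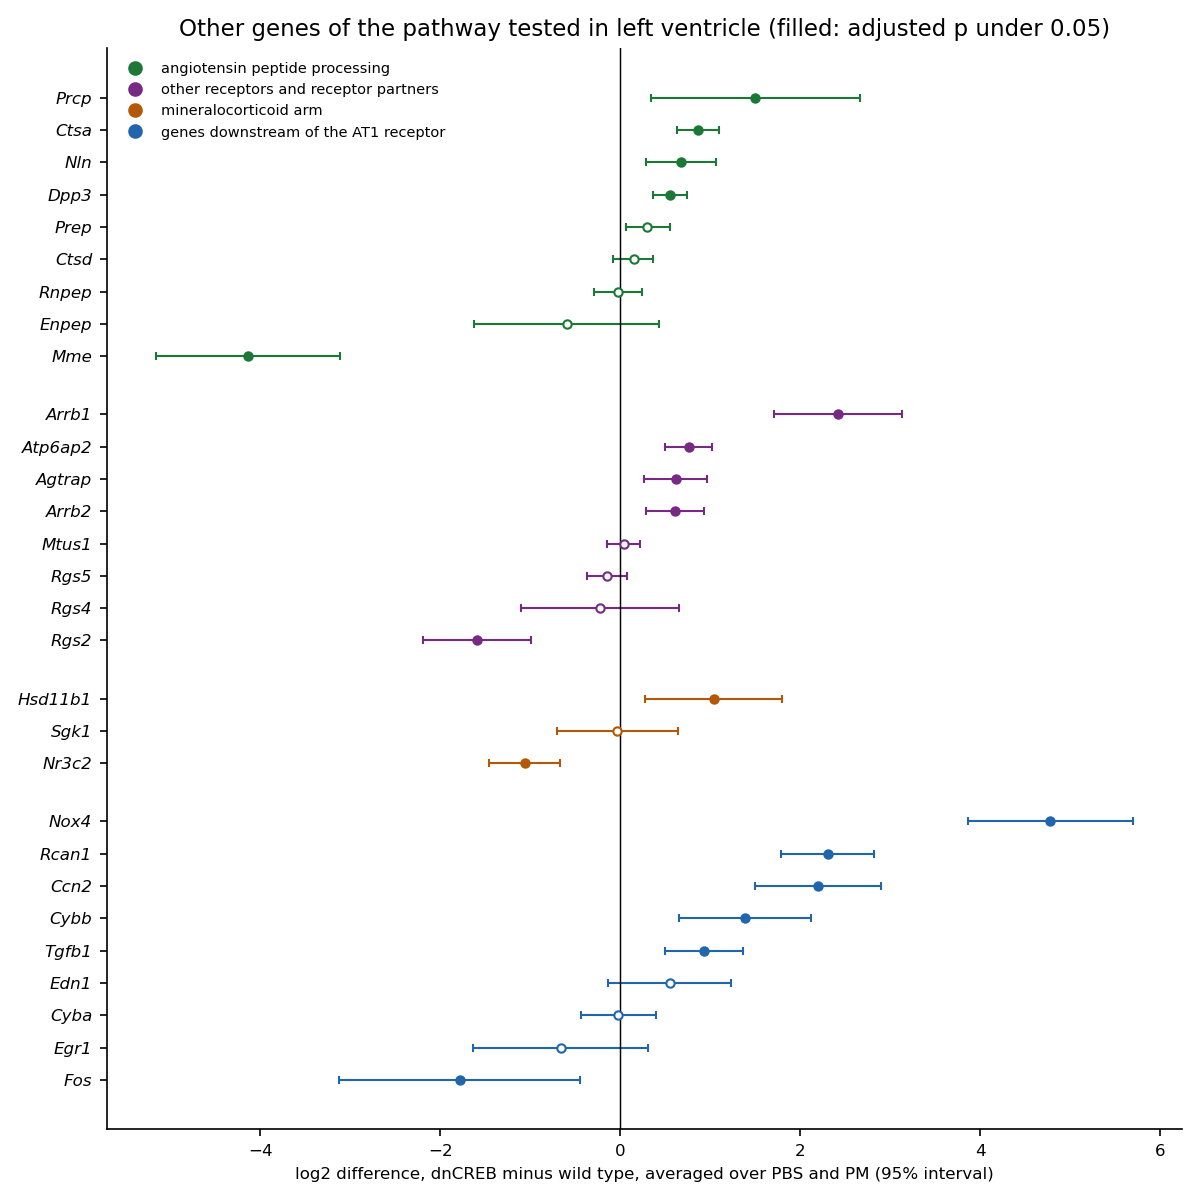
Log2 difference, dnCREB minus WT in left ventricle, averaged over both exposures (horizontal axis, 95% interval), for the 29 other pathway genes tested, grouped by role in 4 colours. Filled points have a limma adjusted p under 0.05, with 14 genes higher and 4 lower, beside 22.3% and 13.6% of all genes. Mme lies furthest to the left at -4.13, and the point of Nox4, at the right, is a fitted value set against WT arrays that were all under 4.

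With PM none of the 29 genes was called in dnCREB or WT hearts, beside 0.0% and 0.01% of all genes. The smallest unadjusted limma p in WT hearts was 0.093, for Cybb. In lung 35 of the other pathway genes were tested. For genotype none was called under PM or PBS, beside 0.0% and 0.0259% of all genes. In those comparisons 461 and 629 of all 11600 genes had an unadjusted limma p under 0.05. PM against PBS gave 3 higher of 35 in WT lungs (8.57%, beside 1.96% of all genes called higher). In dnCREB lungs none was called, beside 0.00862% of all genes. Rgs4, another limiter of Gq signalling, read 9.23, 9.26 and 8.85 in WT PM lungs, against 7.71, 7.72 and 7.91 in WT PBS lungs. The groups did not overlap, as for 26.5% of all genes, and the difference was 1.33 ± 0.19 (SE; limma adjusted p = 0.0141). In dnCREB lungs Rgs4 read 8.89, 9.37 and 9.04 with PM, against 7.90, 8.17 and 7.63 with PBS. These groups did not overlap either, though the difference of 1.20 was not called (limma adjusted p = 0.1571). Cybb and the beta-arrestin Arrb2 were the other 2 in WT lungs, at 1.94 and 1.05 (limma adjusted p = 0.0294 and 0.0425). All 6 macrophage markers were positive for PM in WT lungs with a median of 1.29 and none called, and their part was not tested. The count was 0 without WT PBS replicate 2, 1 without WT PBS replicate 1, WT PM replicate 2 or dnCREB PBS replicate 3, and 8 without WT PM replicate 1. Leaving out the 5 lung arrays with high skeletal muscle genes leaves WT PM replicate 3 alone in its group. No count is given for that setting.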

How the data were processed

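GCRMA had been run by the authors, per the submitters' processing notes (its version is not given in the sources used here), and each deposited value is the log2 expression of a probe set. No step was added. Arrays give no counts, and their number limits the precision. The platform annotation paired 34945 of the 45037 probe sets with 1 gene symbol, 932 with several and 9160 with none, and only the first kind was used. No pair of arrays held identical values, and correlations between arrays of a tissue were 0.979 to 0.998 in heart and 0.951 to 0.996 in lung.

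Each tissue was fitted as 4 group means over 12 arrays with limma 3.58.1 (lmFit and eBayes, R 4.3.3). Genes with at least 3 arrays above 4 were tested, 9962 in heart and 11600 in lung, and 12318 in the fit over both tissues. In 7 comparisons per tissue, p-values were adjusted by Benjamini-Hochberg across every gene of the fit, and a gene was called under 0.05. The fit was tested on simulated data. Tables used Python 3.11.15 with pandas 2.3.3, and plots matplotlib 3.10.9.

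The 5 members, the pathway lists and the marker lists were chosen with earlier results of these data known. The members were always reported. Up to 4 called genes per list and comparison were named by smallest p, and the 3 genes most like a member by Pearson r. Gene coordinates and promoter windows came from RefSeq tables of GRCm38.p6. Agtr1a had no promoter window and its sequence was not used here. Alternatives within a tissue were the filter, the normalization, the arrays in the fit, the variance model, the replicate number as a block, sex-chromosome class, the second Ace probe set and each array left out. For heart minus lung only the block and each array left out were run. In the models, sex-chromosome class was Xist above 6 or not. Lung dnCREB PBS replicates 1 and 3, with neither Xist nor Eif2s3y high, were thus classed with the lungs of high Eif2s3y. The settings for the pathway counts were chosen after seeing the data.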

Additional observations from a re-analysis of the deposited data

Results flagged for a closer look

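The genotype difference, averaged over both exposures, differed between the tissues for both members tested. For Ace, heart minus lung was 2.60 on the log2 scale (limma adjusted p = 0.00015), with all 6 dnCREB hearts above all 6 WT hearts and overlapping groups in lung. For Agtr1a it was -1.73 (limma adjusted p = 0.0032), with all 6 dnCREB hearts below all 6 WT hearts and overlapping groups in lung. Over all genes, 16.8% were called for heart minus lung. In heart, dnCREB and WT groups did not overlap for 36.5% of genes under PM and 42.7% under PBS. Those shares compare 3 arrays with 3, and the share for all 6 against all 6 was not computed.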

How the results depend on the processing

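The Ace genotype difference in left ventricle kept its direction and its call under all 21 alternatives tried per exposure, with values of 2.91 to 3.15 under PM (adjusted p at most 0.00033) and 2.34 to 3.04 under PBS (at most 0.0017). That of Agtr1a kept both under all 20 for PM (-1.78 to -1.52) and under 19 of 20 for PBS, where it was -1.74 with sex-chromosome class as a covariate (adjusted p = 0.1267; 0.0023 to 0.1267 over the alternatives). Heart minus lung kept its call under all 25 alternatives run for it, for Ace (2.41 to 2.96) and Agtr1a (-1.92 to -1.47). These were the replicate block and each array left out in turn. Sex-chromosome class, the filter, the normalization, the variance model and the second Ace probe set were not tried for that comparison.

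Some of the uncalled differences changed sign under a setting, and no uncalled difference of Ace or Agtr1a became called under any alternative run. On the second Ace probe set the heart values were 0.19 for PM in WT, 0.12 for PM averaged over genotypes and -0.13 for the interaction, and the lung value for PM in dnCREB was -0.42. For Agtr1a in lung, sex-chromosome class gave -0.20 for genotype under PM, -0.03 for genotype averaged, -0.20 for PM in WT and -0.36 for PM averaged. PM averaged was -0.09 after quantile normalization and -0.17 without the arrays with high skeletal muscle genes, and genotype under PM was -0.00 after median centring. The causes were not tested.

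With each array left out in turn, the Agtr1a interaction in heart ran over -0.50 to 0.08. In lung, Ace ran over -0.18 to 0.48 for genotype under PM, -0.40 to 0.70 for genotype under PBS and -0.15 to 0.40 averaged. It ran over -0.08 to 0.59 for PM in dnCREB, -0.30 to 0.81 for PM in WT, -0.05 to 0.51 averaged and -0.60 to 0.50 for the interaction. Agtr1a in lung ran over -0.28 to 0.39, -0.18 to 0.65 and -0.09 to 0.36 for genotype under PM, under PBS and averaged. It ran over -0.19 to 0.00, -0.31 to 0.53 and -0.21 to 0.20 for PM in dnCREB, in WT and averaged, and -0.65 to 0.19 for the interaction. Leaving out lung WT PBS replicate 1 changed the sign of 10 of the lung differences.

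The pathway counts moved by over 1.5 times as follows. In dnCREB hearts under PM, sex-chromosome class gave 4 genes higher in place of 9. Under PBS it gave 2 higher and 1 lower in place of 9 and 3, no filter gave 1 lower, and leaving out arrays gave 1 to 4 lower. For PM in WT lungs, 3 genes became 1 with no filter, 0 with only the groups compared, 5 with sex-chromosome class, and 0 to 8 with single arrays left out. The setting without the arrays with high skeletal muscle genes leaves WT PM replicate 3 and dnCREB PBS replicate 2 alone in their groups. Its counts are not given. Over all genes, the 2042 called in heart under PM became 1168 with only the groups compared and 942 with sex-chromosome class, and the 1869 under PBS became 337 with sex-chromosome class. The 277 called for PM in WT lungs became 85, 24 and 687 under the first 3 of those lung settings.

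Within a tissue, replicate numbers showed no clear pairing of arrays between groups. Lung and heart arrays were not compared in this way. Of 18 same-numbered pairs per tissue, 4 in heart and 4 in lung had deviations correlated over 0.1 (median 0.03 and -0.08). With the number as a replicate block, the Ace genotype difference was 3.10 under PM and 2.52 under PBS, the pathway counts were 8 and 3 under PM and 9 and 3 under PBS, and no call of a member changed. Settings that leave 2 arrays in a group assume that they vary like the other groups. The number of arrays limits the precision, and Agt and Agtr2 were under 4 and not tested.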
